A study of Homo sapiens with 4 samples.

Results

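Wnt signalling genes were measured in U87MG cells, an established human glioblastoma line. The set comprised the Wnt ligands, the Frizzled receptors (FZD), the co-receptors LRP5 and LRP6, the R-spondins (RSPO) and their LGR receptors. It also held the secreted inhibitors of the DKK and SFRP families and WIF1, the AXIN scaffolds and the TCF/LEF transcription factors. Genes were taken by symbol from the probe sets that carried a single gene symbol, and each gene was read on its brightest probe set, judged by the mean of all 4 arrays. The rule found 51 genes among the 18132 genes measured in this way. They were 18 Wnt ligands, 10 Frizzled receptors, 2 LRP co-receptors, 4 R-spondins, 3 LGR receptors, 4 DKK inhibitors, 5 members of the SFRP and WIF1 group, 2 axins and 3 TCF/LEF factors. No filter on low values was applied, so all 51 were tested. WNT3 and TCF7 were not analysed here.

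One group of 2 cultures was transfected with a NeuroD2 expression vector and the other group of 2 with a PCMV control vector. NeuroD2 is a basic helix-loop-helix transcription factor of neuronal differentiation. Cells of both groups were kept at 0.2% oxygen, and RNA was taken 48 hours after transfection and labelled for PrimeView arrays, which carry 1 colour. The labels call the 2 arrays of a group biological replicates without saying how the cultures were separated, so the spread between them may be partly technical. No transfection efficiency was given, each group rests on 1 line and 1 vector, and RNA came from whole cultures, so fewer expressing cells and less RNA per cell cannot be told apart.

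Wnt proteins are secreted glycolipoproteins that bind Frizzled receptors. With LRP5 or LRP6 as co-receptor, a Wnt stops the destruction complex built on axin from degrading beta-catenin, which then acts with TCF/LEF factors in the nucleus. R-spondins bind LGR receptors and keep Frizzled receptors on the cell surface by removing the ubiquitin ligases RNF43 and ZNRF3. DKK proteins block LRP5 and LRP6, while SFRP proteins and WIF1 bind Wnts outside the cell. Other Wnts, WNT5A among them, signal largely without beta-catenin, and Wnt signals are studied in glioblastoma for their part in growth, stemness and invasion.

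NEUROD2 read 7.37 and 7.82 on the NeuroD2 arrays, against 5.46 and 5.35 on the control arrays (log2 signal of its brightest probe set; difference 2.19, limma adjusted p = 0.0044). Its other 2 probe sets differed by -0.21 and -0.07 (adjusted p = 0.511 and 0.682 among all probe sets). Without control replicate 1 the difference of the brightest was 2.25, and without control replicate 2 it was 2.14, and it passed in neither fit. Hybridisation spikes, RNAs added at a fixed amount before hybridisation, averaged 10.10 and 10.13 on the NeuroD2 arrays, against 9.56 and 9.90 on the control arrays. The poly-A spikes averaged 7.96 and 8.03 on the NeuroD2 arrays, against 6.95 and 7.98 on control replicates 1 and 2. Control replicate 1 was thus lowest in both kinds of spike, and the part of this in the results below was not tested. Of 8 markers set for the line all were measured, between 6.32 and 14.15 on the NeuroD2 arrays and between 6.07 and 14.18 on the control arrays. Of these TNC rose (difference 0.45, limma adjusted p = 0.0378), FN1 fell (-0.63, adjusted p = 0.0318) and 6 did not pass. The highest was the mesenchymal filament gene VIM, and the lowest was the astrocyte filament gene GFAP, at 6.32 and 6.35 on the NeuroD2 arrays against 6.11 and 6.07 on the control arrays. Of 14 markers of neurons, microglia, endothelium and oligodendrocytes, 13 were measured, from 3.45 to 8.06 on the NeuroD2 arrays and from 2.95 to 8.66 on the control arrays. The highest of these was SNAP25, a gene of the synaptic vesicle machinery, and it was the only one of the 13 to pass the test (difference -0.59, limma adjusted p = 0.0312).

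With the NeuroD2 vector, the R-spondin gene RSPO3 and the ligand gene WNT7B rose, and the inhibitor gene DKK1 and the receptor gene FZD4 fell. RSPO3 changed most, 2.12-fold, and DKK1 was 1.71-fold lower. WNT7B rose 1.38-fold and FZD4 was 1.39-fold lower. The other 47 genes did not pass, with differences from -0.42 to 0.31 on the log2 scale. Among all 18132 genes, 4.77% passed the same test (limma adjusted p below 0.05), 1.81% higher and 2.96% lower, so the 4 of 51 (7.84%) stand close to that share. The median difference of the 51 genes was -0.003, against 0.00 over all genes, and their median absolute difference was 0.12, against 0.11 over all genes.

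**Figure D1:**
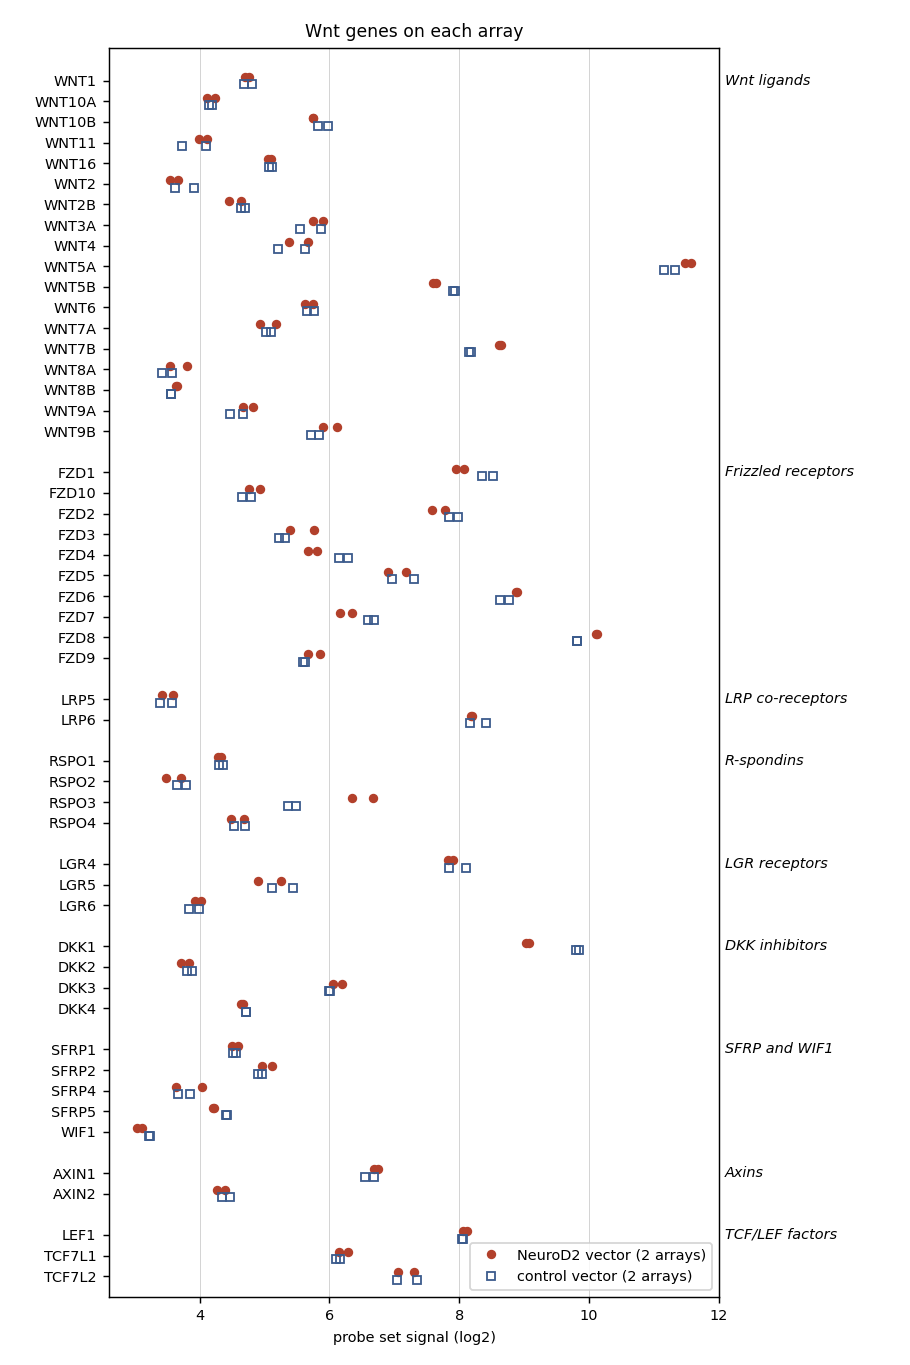
Signal of the 51 Wnt genes on each of the 4 arrays (x axis, log2 signal of the gene's brightest probe set), grouped by role down the page. Filled circles are the 2 NeuroD2 arrays and open squares the 2 control arrays. RSPO3 and WNT7B lie to the right of their controls and DKK1 and FZD4 to the left, while most genes overlap or lie close together.

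RSPO3, which encodes a secreted amplifier of Wnt signalling, read 6.34 and 6.67 on the NeuroD2 arrays, against 5.36 and 5.49 on the control arrays (log2). Both NeuroD2 cultures lay above both control cultures, by more than either group's own spread. The difference was 1.08 (95% interval 0.78 to 1.39, limma adjusted p = 0.0148). It is the only probe set of the gene, so no second reading was at hand. Without NeuroD2 replicate 1 the difference was 1.25 and still passed. It did not pass without NeuroD2 replicate 2 (0.92), control replicate 1 (1.02) or control replicate 2 (1.15). Those fits leave 1 array in a group, and without either control array NEUROD2 itself did not pass.

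DKK1, the inhibitor that binds LRP5 and LRP6 and is itself a known target of beta-catenin and TCF, read 9.08 and 9.03 on the NeuroD2 arrays, against 9.84 and 9.80 on the control arrays (log2). The groups stood well apart, with 0.05 or less between the arrays of a group. The difference was -0.77 (95% interval -0.95 to -0.59, limma adjusted p = 0.0093), the lowest adjusted p of the 51 genes. DKK1 too had a single probe set. With any array left out the fall lay between -0.80 and -0.75, but it passed in none of these fits, which leave 1 array in a group.

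WNT7B, a ligand known in mice for its part in the growth of brain blood vessels, read 8.65 and 8.61 on the NeuroD2 arrays, against 8.18 and 8.15 on the control arrays (log2). The arrays of a group were close and the groups did not overlap. The difference was 0.47 (95% interval 0.29 to 0.64, limma adjusted p = 0.0306). All 4 of its probe sets read higher with NeuroD2, by 0.16 to 0.47, and their mean differed by 0.29, which did not pass (adjusted p = 0.0980). With an array left out, and so 1 array in a group, the difference stayed between 0.45 and 0.48 without passing.

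FZD4, a Frizzled that also serves as the receptor of the retinal vascular factor Norrin, read 5.66 and 5.80 on the NeuroD2 arrays, against 6.28 and 6.14 on the control arrays (log2). Both NeuroD2 cultures lay below both controls. The difference was -0.48 (95% interval -0.70 to -0.25, limma adjusted p = 0.0468), only just past the threshold. The other 2 probe sets differed by -0.18 and -0.01, and the mean of all 3 by -0.22 (adjusted p = 0.109). With a robust prior, a setting of limma that lets unusual genes keep their own variance, the adjusted p was 0.0515. With an array left out, and so 1 array in a group, the difference lay between -0.55 and -0.41 without passing.

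**Figure D2:**
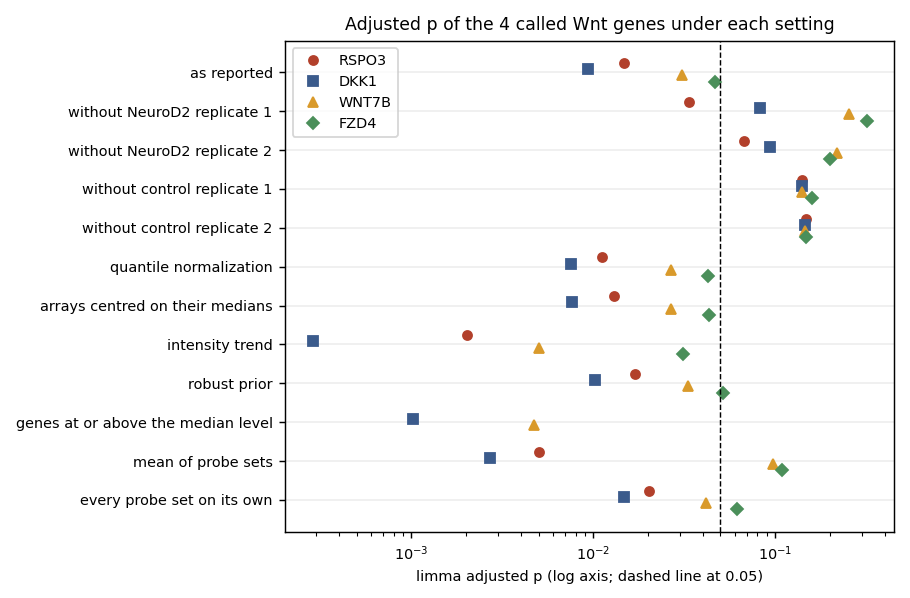
Limma adjusted p (x axis, log scale) of RSPO3, DKK1, WNT7B and FZD4 as reported and under 11 of the 12 other settings down the page (the replicate block is not drawn), with a dashed line at 0.05. RSPO3 and FZD4 have no point where only the brighter genes were kept, since both lie below the median level. Without either control array none of the 4 lies left of the line, and NEUROD2, not drawn, did not pass there either.

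The promoters of RSPO3, DKK1 and FZD4 are shown because the overexpressed protein is a DNA-binding factor that recognises E-boxes. No window of WNT7B, the other gene called, was at hand, so it was not searched. The windows hold 250 bases before and 50 after the gene's start, from RefSeq on GRCh38.p14, and are written 5′ to 3′ on the gene's strand. The RSPO3 window is chr6:127118421-127118720 on the plus strand, the DKK1 window chr10:52314031-52314330 on the plus strand and the FZD4 window chr11:86955346-86955645 on the minus strand. Capitals mark any match to the motifs searched, on both strands: the E-box CANNTG, its NeuroD-type form CAGATG (contained in CANNTG), and the TCF/LEF-type words TTCAAAG and ATCAAAG.
RSPO3: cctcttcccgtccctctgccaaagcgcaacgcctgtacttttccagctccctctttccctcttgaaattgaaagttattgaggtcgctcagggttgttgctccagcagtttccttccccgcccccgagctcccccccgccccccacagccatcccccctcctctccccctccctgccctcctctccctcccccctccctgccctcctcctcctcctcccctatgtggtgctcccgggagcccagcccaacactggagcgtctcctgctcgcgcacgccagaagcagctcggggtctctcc
DKK1: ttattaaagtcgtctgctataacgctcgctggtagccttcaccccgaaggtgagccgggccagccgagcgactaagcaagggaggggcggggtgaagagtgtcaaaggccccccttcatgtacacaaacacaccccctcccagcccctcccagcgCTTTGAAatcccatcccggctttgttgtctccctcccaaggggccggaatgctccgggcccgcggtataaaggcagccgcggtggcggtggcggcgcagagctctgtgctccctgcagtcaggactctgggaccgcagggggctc
FZD4: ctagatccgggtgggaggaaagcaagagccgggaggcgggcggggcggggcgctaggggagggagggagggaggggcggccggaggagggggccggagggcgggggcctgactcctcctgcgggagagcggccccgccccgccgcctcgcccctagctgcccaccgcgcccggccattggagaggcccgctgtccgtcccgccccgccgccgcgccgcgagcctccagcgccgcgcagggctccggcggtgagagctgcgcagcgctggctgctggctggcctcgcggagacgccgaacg
None of the 3 windows held CANNTG, and the DKK1 window held a single match to TTCAAAG, read as CTTTGAA on the printed strand and starting 95 bases before the gene's start. The windows are rich in G and C, at 65.3% in RSPO3, 63.7% in DKK1 and 79.7% in FZD4. Windows of 35 of the 51 genes were matched by symbol. CANNTG was found in 18 of these 35 (51.4%), against 68.9% of all 27305 promoters, and CAGATG in 0 of 35, against 14.8%. TTCAAAG was found in 1 of 35 (2.9%), against 4.5% of all, and ATCAAAG in 0 of 35, against 2.6%. These are counts of letters in short windows and not of bound sites.

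Among the Wnt ligands, WNT7B rose and 17 of 18 did not pass (limma adjusted p below 0.05). The 1 of 18 is 5.56%, against 4.77% of all genes. WNT5A, the ligand of beta-catenin-independent signalling, read 11.49 and 11.58 on the NeuroD2 arrays, against 11.17 and 11.32 on the control arrays. The groups did not overlap, and the difference of 0.29 (95% interval 0.07 to 0.51) had an adjusted p of 0.133. All 5 WNT5A probe sets read higher, by 0.25 to 0.44. WNT5B, its close paralog, lay the other way, at 7.65 and 7.60 on the NeuroD2 arrays against 7.93 and 7.91 on the control arrays. Its difference was -0.30 (95% interval -0.48 to -0.12, adjusted p = 0.0812), and its 3 probe sets ran from -0.30 to -0.18. So the 2 paralogs differed in sign on every one of their probe sets, while neither passed the test over all genes, and no test of the difference between them was made. Both passed with an intensity trend, a setting that lets the variance prior follow the signal (adjusted p = 0.0229 for WNT5A and 0.0483 for WNT5B). WNT9B read 6.12 and 5.90 on the NeuroD2 arrays, against 5.84 and 5.71 on the control arrays (difference 0.23, adjusted p = 0.269). The 2 NeuroD2 arrays lay nearly as far apart as the group means did. The groups did not overlap in 6 of the 18 ligands, 4 higher and 2 lower, and the share over all genes was 50.8%.

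Among the 10 Frizzled receptors, which bind Wnts through a cysteine-rich domain, FZD4 fell and 9 did not pass, and 4.77% of all genes passed. The groups did not overlap in 8 of the 10, 4 higher and 4 lower, against 50.8% of all genes, and the median difference was 0.01. FZD1 read 7.95 and 8.08 on the NeuroD2 arrays, against 8.36 and 8.52 on the control arrays (difference -0.42, 95% interval -0.65 to -0.19, limma adjusted p = 0.0639). FZD7, a relative of FZD1, read 6.16 and 6.34 on the NeuroD2 arrays, against 6.60 and 6.69 on the control arrays (difference -0.40, adjusted p = 0.0758). Both receptors were lower in the 2 NeuroD2 cultures than in either control, short of the threshold. Averaged over its 3 probe sets, which differed by -0.40 to -0.12, FZD7 passed (-0.29, adjusted p = 0.0488). FZD2, of the same subfamily, read 7.79 and 7.58 on the NeuroD2 arrays, against 7.98 and 7.85 on the control arrays (difference -0.23, adjusted p = 0.258).

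FZD8 lay in the other direction, at 10.10 and 10.13 on the NeuroD2 arrays against 9.82 and 9.81 on the control arrays. Its groups were tight and apart, with a difference of 0.30 (95% interval 0.12 to 0.48, limma adjusted p = 0.0765), and its second probe set differed by 0.20. FZD3, known for axon guidance in mice, read 5.39 and 5.76 on the NeuroD2 arrays, against 5.31 and 5.22 on the control arrays. The gap between the 2 NeuroD2 arrays was larger than the distance from the lower one to the controls (difference 0.31, 95% interval -0.01 to 0.63, adjusted p = 0.248). FZD1 and FZD8 passed with an intensity trend (adjusted p = 0.0178 and 0.0113). They also passed when only genes no dimmer than the median gene were kept (adjusted p = 0.0149 and 0.0159), as did WNT5A and WNT5B (0.0408 and 0.0178). That setting tested fewer genes and also estimated the variance prior anew from the brighter genes.

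**Figure D3:**
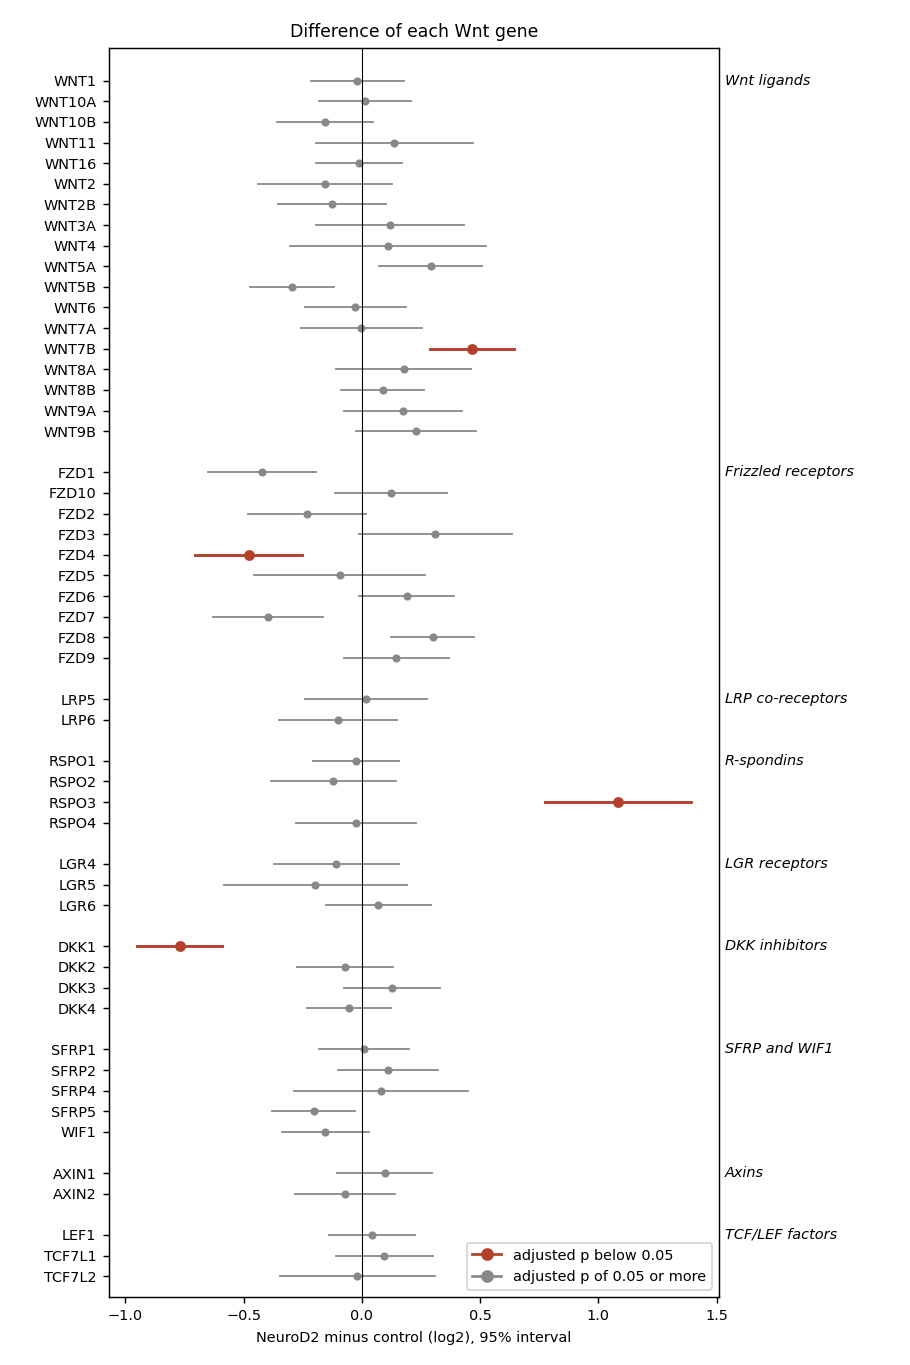
Difference of each of the 51 Wnt genes (x axis, NeuroD2 minus control on the log2 scale) with its 95% limma interval, grouped by role. Red marks the 4 genes past an adjusted p of 0.05. Frizzled receptors lie on both sides of 0, and the intervals of the co-receptors, LGR receptors, axins and TCF/LEF factors all include 0.

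The co-receptors and the receptors of the R-spondins did not pass. LRP6 read 8.19 and 8.19 on the NeuroD2 arrays, against 8.17 and 8.41 on the control arrays, and LRP5 differed by 0.02. The groups overlapped in both, and the 95% interval of LRP6 ran from -0.35 to 0.15. LGR4 read 7.82 and 7.91 on the NeuroD2 arrays, against 7.85 and 8.10 on the control arrays (difference -0.11, 95% interval -0.37 to 0.16, limma adjusted p = 0.628). LGR5, a stem cell marker of the gut, differed by -0.20 and LGR6 by 0.07. The second probe sets of LGR4 and LGR5 lay the other way, each at 0.24. The R-spondins other than RSPO3 differed by -0.12 (RSPO2), -0.03 (RSPO1) and -0.03 (RSPO4), so RSPO3 was the only 1 of the 4 to pass. The 3 probe sets of RSPO1 ran from -0.03 to 0.25.

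Of the secreted inhibitors, DKK1 fell and the other 8 did not pass, where 4.77% of all genes passed. DKK2 differed by -0.07 and DKK4 by -0.05. DKK3, a divergent member of the family that is not held to act on LRP6 as DKK1 does, gave readings that depended on the probe set. Its brightest probe set read 6.20 and 6.06 on the NeuroD2 arrays, against 6.001 and 6.003 on the control arrays (difference 0.13, limma adjusted p = 0.437). Its second-brightest read 5.63 and 5.54 on the NeuroD2 arrays, against 6.23 and 6.18 on the control arrays. This difference of -0.62 passed when every probe set was tested on its own (adjusted p = 0.0258), and the 6 probe sets of DKK3 ran from -0.62 to 0.13. The probe set was picked out after its values were seen. Among the proteins that bind Wnts directly, SFRP2 read 5.12 and 4.96 on the NeuroD2 arrays, against 4.90 and 4.96 on the control arrays. SFRP1, SFRP4 and SFRP2 differed by 0.01, 0.08 and 0.11, and SFRP5 and WIF1 by -0.20 and -0.15. All 5 had adjusted p-values of 0.177 or more on their brightest probe sets, and the 4 probe sets of SFRP1 ran from -0.12 to 0.43.

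**Figure D4:**
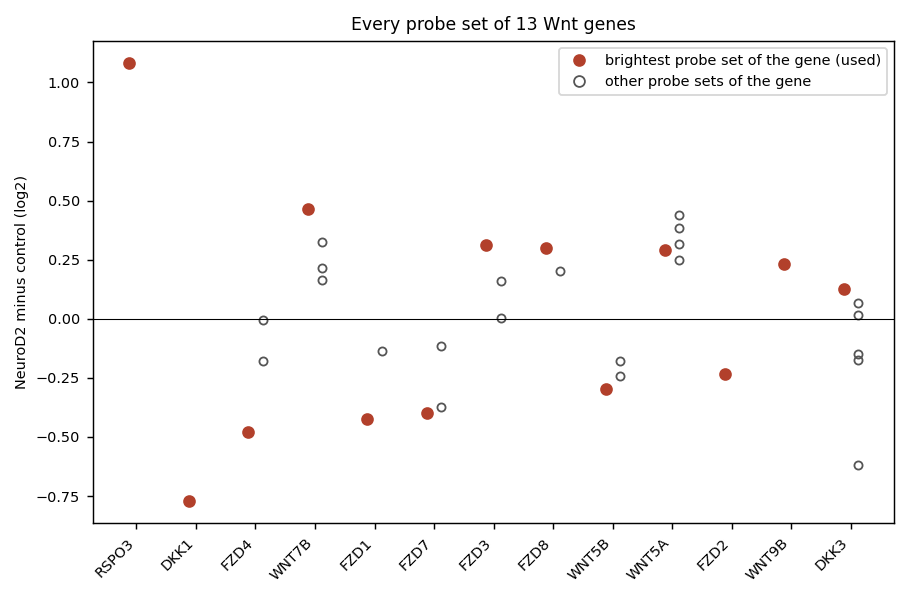
Difference (y axis, NeuroD2 minus control on the log2 scale) on every probe set of the 12 Wnt genes with the largest differences and of DKK3. Red points are the brightest probe set of a gene, used throughout, and open circles its other probe sets. The probe sets of WNT7B, WNT5A, WNT5B, FZD1, FZD3, FZD4, FZD7 and FZD8 lie on 1 side of 0, while those of DKK3 lie on both. FZD3 and FZD4 each have a probe set very close to 0.

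Inside the cell, none of the axins or TCF/LEF factors passed. AXIN1, the scaffold of the destruction complex, read 6.68 and 6.75 on the NeuroD2 arrays, against 6.68 and 6.56 on the control arrays (difference 0.10, limma adjusted p = 0.569). AXIN2, the feedback scaffold that is among the most widely used targets of beta-catenin, read 4.27 and 4.40 on the NeuroD2 arrays, against 4.46 and 4.35 on the control arrays. Its groups overlapped, and the difference of -0.07 had a 95% interval of -0.29 to 0.14. The mean signal of AXIN2, 4.37, was below the median of all genes (6.56), and its 3 probe sets ran from -0.15 to 0.02. LEF1 read 8.06 and 8.13 on the NeuroD2 arrays, against 8.06 and 8.04 on the control arrays (difference 0.04, 95% interval -0.14 to 0.23). TCF7L1 differed by 0.09 and TCF7L2 by -0.02. The 7 probe sets of TCF7L2 ran from -0.03 to 0.26, and the 9 of LEF1 from -0.05 to 0.09.

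Over all 51 genes, 22 had groups that did not overlap (43.1%), 12 higher and 10 lower, against 50.8% of all genes. An unadjusted p below 0.05 was reached by 10 of the 51 (19.6%), against 21.8% of all genes. On neither of these counts did the Wnt genes lie above the whole array. The median absolute gap between the replicates was 0.13 on the NeuroD2 arrays and 0.12 on the control arrays for these genes, and 0.07 and 0.12 for all genes. Of the 51, 37 had a mean signal below the median of all genes (6.56), RSPO3 and FZD4 among them. Signals of different probe sets do not rank transcripts by abundance. The 23 background probe sets, which match no human transcript, averaged from 2.84 at the lowest GC content to 10.7 at the highest, around a median of 3.36. Of the 51 genes, 50 lay within that range and 50 above its median, no detection calls were used, and none is called absent here.

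**Figure D5:**
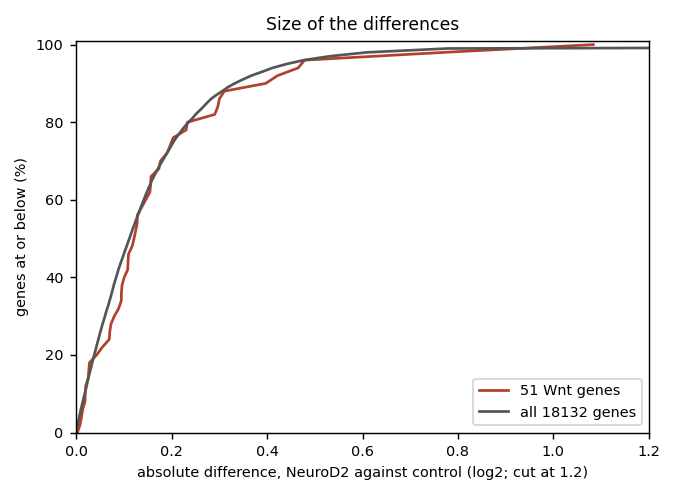
Share of genes (y axis, percent) with an absolute difference between NeuroD2 and control arrays at or below the value on the x axis (log2). The red line is the 51 Wnt genes and the grey line all 18132 genes, and the median is 0.12 for the Wnt genes and 0.11 for all genes.

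Of the 34 Wnt genes with more than 1 probe set, every probe set had the same sign in 12. Tested on their own, 4 of the 124 probe sets of the 51 genes passed, against 3.03% of all single-symbol probe sets. They were those of RSPO3, DKK1 and WNT7B named above and the second-brightest of DKK3.

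The rest of the pathway was read through 57 further genes of secretion, reception, the destruction complex and the nucleus, of which 55 were measured. Of these, 3 rose, 0 fell and 52 did not pass (limma adjusted p below 0.05), a share of 5.45% against 4.77% of all genes, with a median difference of 0.07. DACT1, which binds Dishevelled, read 6.82 and 7.02 on the NeuroD2 arrays, against 6.31 and 6.21 on the control arrays (difference 0.66, adjusted p = 0.0265). CTNNBIP1, which keeps beta-catenin from TCF factors, read 6.95 and 6.97 on the NeuroD2 arrays, against 6.46 and 6.38 on the control arrays (difference 0.54, adjusted p = 0.0236). BTRC, the F-box protein that recognises phosphorylated beta-catenin for degradation, read 7.49 and 7.42 on the NeuroD2 arrays, against 6.98 and 6.99 on the control arrays (difference 0.47, adjusted p = 0.0310). In each of these 3 genes the groups stood apart by more than their spread. Averaged over all probe sets of the gene, none of them passed, at 0.33 for DACT1, 0.17 for CTNNBIP1 and 0.19 for BTRC (adjusted p = 0.0543, 0.203 and 0.186). On those averages 3 other genes of the list passed, 2 higher and 1 lower, so the single direction depended on the probe sets used. DACT1, CTNNBIP1 and BTRC did not pass with any 1 array left out, in fits that leave 1 array in a group. The beta-catenin gene CTNNB1 itself, picked out afterwards, read 11.73 and 11.78 on the NeuroD2 arrays, against 11.79 and 11.88 on the control arrays (difference -0.08, adjusted p = 0.614). All 8 of its probe sets read lower, by -0.29 to -0.08, and 0 of them passed on their own.

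Of 30 genes described elsewhere as beta-catenin targets in 1 tissue or another, 28 were measured. The list was drawn up with earlier results of these data known. It left out DKK1, AXIN2, LEF1, LGR5, ZNRF3, RNF43, NOTUM, NKD1 and APCDD1, targets too, which were counted with the members or the pathway list. Of these DKK1 fell (difference -0.77, limma adjusted p = 0.0093), and the others did not pass (adjusted p from 0.394 to 0.996). EDN1 rose, ID2, TWIST1 and MMP7 fell and 24 did not pass, a share of 14.3% against 4.77% of all genes, with a median difference of 0.03. ID2, an inhibitor of basic helix-loop-helix factors, read 8.72 and 8.77 on the NeuroD2 arrays, against 9.60 and 9.84 on the control arrays (difference -0.97, limma adjusted p = 0.0113). TWIST1, a basic helix-loop-helix factor of mesenchymal cells, read 8.44 and 8.46 on the NeuroD2 arrays, against 8.96 and 9.09 on the control arrays (difference -0.58, adjusted p = 0.0237). Both genes also answer to other pathways, so the list is not specific to Wnt signalling. The protease gene MMP7 read 3.90 and 3.94 on the NeuroD2 arrays, against 4.41 and 4.62 on the control arrays (difference -0.60, adjusted p = 0.0315). Its mean signal of 4.22 was below the median of all genes (6.56). The 4 probe sets of MMP7 ran from -0.60 to 0.12, and their average differed by -0.14 (adjusted p = 0.281). EDN1, which encodes endothelin-1, read 5.67 and 5.32 on the NeuroD2 arrays, against 4.78 and 4.83 on the control arrays (difference 0.69, adjusted p = 0.0425), and its dimmer probe set differed by 1.19. The 4 genes thus moved in both directions. None of the 4 passed with any 1 array left out, in fits that leave 1 array in a group. MYC and CCND1, named after their values were seen, differed by 0.32 (adjusted p = 0.0894) and -0.15 (adjusted p = 0.293). The single probe set of MYC gave that value, while the 4 of CCND1 ran from -0.15 to 0.14, the brightest alone being lower.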

How the data were processed

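Of 4 PrimeView arrays, 2 were of NeuroD2-vector and 2 of control-vector cells, with groups and replicate numbers from the sample titles. The authors deposited 1 table of 49395 probe sets, taken from its values to be on a log2 scale and normalized between arrays (array medians 5.98 to 5.99). The sources used here name neither the software nor the background correction. Columns of no sample numbered 0. No depth applies to arrays, and their number limits the precision.

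Platform annotation gave 44988 probe sets 1 symbol, 1832 several and 2473 none, and 102 were Affymetrix controls. Groups were compared with limma 3.58.1 in R 4.3.3 (lmFit and eBayes, two-sided, group as the only term, 2 residual and 3.84 prior degrees of freedom), with Benjamini-Hochberg adjustment over all 18132 genes. An exact permutation test of 2 against 2 cannot go below 0.333 and was not used. The fit was tested on simulated data.

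The members, lists and tests were chosen with earlier results of these data known. Array values are given for members past the threshold, the 12 with the largest difference and the brightest of each role. Those of AXIN2 and DKK3 were given outside this rule. Of the lists, genes past the threshold are named, at most 6 each. Alternatives were a replicate block, leaving out each array, averaging a gene's probe sets, testing each probe set alone, keeping only the brighter genes, quantile normalization, median centring, and an intensity trend or robust fit in the prior.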

Additional observations from a re-analysis of the deposited data

How the results depend on the processing

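The directions of the 4 called Wnt genes held under every alternative in which they were tested, but RSPO3 alone kept its call with an array left out, and only without NeuroD2 replicate 1. With 1 array left out, between 0 and 1 Wnt genes, 0 and 66 of all genes, and 0 genes of either list passed, and the lone array of a group was assumed to vary like the other group. The median of the 51 genes then lay between -0.013 and 0.035, and the NEUROD2 difference between 1.97 and 2.42. The replicate numbers were not shown to pair the cultures: replicate differences in the NeuroD2 and control groups correlated at 0.08 across genes. With the replicate block, 2 Wnt genes passed (RSPO3 and DKK1), 335 genes in all, 0 of the pathway list and 1 of the target list. With an intensity trend these counts were 8, 2056, 6 and 9. When only genes no dimmer than the median gene were kept, 6 of 14 Wnt genes, 2081 of 9066 genes (23.0%), 8 of 28 genes of the pathway list and 8 of 14 of the target list passed, and the Wnt median was -0.057. With probe sets averaged it was 0.022. Tested singly, 1361 probe sets passed. Quantile normalization and median centring left the same 4 Wnt genes called. With 2 arrays a group, a 95% interval of a Wnt gene that did not pass was between 0.35 and 0.83 wide.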
